A study of Mus musculus with 12 samples.

Results

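On the wild-type (WT) arrays of this series, 115 of 18194 genes, or 0.632%, had a high signal in DN3 thymocytes and a lower one at both later stages. A gene was chosen when its lower WT DN3 array exceeded the highest of the 4 WT DN4 and DP arrays by at least 1 on the log2 scale, that is by 2-fold or more. Each gene was represented by its brightest probe set, the one with the highest mean over all 12 arrays. The genes were thus chosen by their WT signals, which are given as a description with no test. Tests were made in the other genotype, whose arrays entered the choice only through the mean that picked each gene's probe set.

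The series hybridised RNA of sorted mouse thymocytes to Affymetrix expression arrays, for the DN3, DN4 and DP stages of 2 genotypes, WT and IkL/L. Each of the 6 groups held 2 arrays, and the cells of 3 mice were combined before sorting. IkL/L mice are homozygous for an allele of Ikzf1, which encodes the zinc-finger transcription factor Ikaros, and the series calls their cells Ikaros-deficient. The L allele is known as a hypomorph, which lowers Ikaros and does not remove it. All groups are untreated cells of the thymus, and the sort gates, strain, age and sex of the mice are not given in the sources used here. The sources used here do not state how the arrays of a group relate to the pools of mice, so p values measure only the spread between these arrays. In sorted populations, fewer cells expressing a gene and less RNA per cell cannot be told apart.

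DN3 and DN4 cells are thymocytes without the CD4 and CD8 co-receptors, and DP cells carry both. At DN3 a cell rearranges its T cell receptor beta gene under signals from Notch receptors and the interleukin-7 receptor, and a successful chain pairs with the pre-T-alpha chain to form the pre-T cell receptor. Signals from that receptor, called beta-selection, carry the cell through DN4, where it divides rapidly and loses much of the early program, to DP.

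The promoter windows of 4 of the 115 genes are shown because their transcripts behaved differently at these steps. Il2ra had the largest measured DN3 to DN4 difference in IkL/L cells, the signal of Spib in IkL/L DN3 cells was well under the WT one, and Ptcra and Dtx1 had no fall that passed the test in IkL/L cells. The windows are from RefSeq on GRCm38.p6 and run from 250 bases before to 50 bases after an annotated start, 5' to 3' on the strand of the gene. Il2ra lies at chr2:11642542-11642841 on the plus strand. Ptcra lies at chr17:46763663-46763962, Dtx1 at chr5:120711620-120711919 and Spib at chr7:44532022-44532321, each on the minus strand. Capitals mark a match, on either strand, to any of 6 short motifs. TGGGAA is a core that Ikaros and the Notch effector Rbpj share. CAGNTG is the E-box bound by E proteins, and TGTGGT is a Runx motif. GGAAGT stands for the Ets family and can overlap the Ikaros core. ATCAAAG is read by Tcf1 and Lef1, and AGATAA by Gata3.
Il2ra: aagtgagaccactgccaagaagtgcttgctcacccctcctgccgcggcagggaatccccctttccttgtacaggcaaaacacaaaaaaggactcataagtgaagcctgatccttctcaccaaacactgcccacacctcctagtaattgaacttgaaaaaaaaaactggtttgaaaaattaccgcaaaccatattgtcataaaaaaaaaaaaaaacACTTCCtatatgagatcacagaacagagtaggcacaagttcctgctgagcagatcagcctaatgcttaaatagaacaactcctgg
Ptcra: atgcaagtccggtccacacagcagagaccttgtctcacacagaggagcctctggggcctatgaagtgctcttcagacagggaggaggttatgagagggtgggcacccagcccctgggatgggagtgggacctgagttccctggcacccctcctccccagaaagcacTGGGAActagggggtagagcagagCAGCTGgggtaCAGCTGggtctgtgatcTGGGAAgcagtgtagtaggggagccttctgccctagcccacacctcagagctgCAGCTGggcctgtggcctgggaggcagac
Dtx1: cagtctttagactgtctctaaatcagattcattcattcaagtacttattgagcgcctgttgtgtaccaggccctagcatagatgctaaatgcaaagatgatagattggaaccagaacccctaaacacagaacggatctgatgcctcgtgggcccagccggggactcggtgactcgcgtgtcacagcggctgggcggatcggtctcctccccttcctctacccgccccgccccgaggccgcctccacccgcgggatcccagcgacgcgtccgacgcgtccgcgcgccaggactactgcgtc
Spib: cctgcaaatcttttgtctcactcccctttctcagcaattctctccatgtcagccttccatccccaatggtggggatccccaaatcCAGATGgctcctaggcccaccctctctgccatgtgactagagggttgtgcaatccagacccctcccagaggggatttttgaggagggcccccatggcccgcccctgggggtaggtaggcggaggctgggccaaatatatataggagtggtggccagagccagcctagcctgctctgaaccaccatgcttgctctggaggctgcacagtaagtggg

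The Ptcra window held 2 matches to TGGGAA and 3 to CAGNTG, the Il2ra window 1 to GGAAGT and the Spib window 1 to CAGNTG. None of the 6 motifs was found in the Dtx1 window. Windows were given for 79 of the 115 genes, 21 of them with more than 1, which made 110 windows. TGGGAA was in 26.4% of these windows and in 25.6% of all 32851 windows of that length. CAGNTG was in 46.4% against 51.4%, TGTGGT in 18.2% against 16.8% and GGAAGT in 21.8% against 23.8%. ATCAAAG was in 3.64% against 3.73%, and AGATAA in 5.45% against 11.2%. A match is only a run of letters, and its absence from a window says nothing about the factor.

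The arrays were alike in overall signal, with medians between 5.14 and 5.22 on the log2 scale. Signals below the median of an array may be mostly background, and precision is limited by having 2 arrays a group. Ikzf1 read 11.78 to 12.40 on the WT arrays and 11.18 to 11.75 on the IkL/L arrays, and at each stage both IkL/L arrays were below both WT arrays. Stage markers followed the labels: Cd4 read 5.71 to 6.51 on the DN3 and DN4 arrays and 10.57 to 11.30 on the DP arrays. The Y-linked gene Eif2s3y read 2.82 to 3.12 on the 3 IkL/L replicate 2 arrays and 7.78 to 9.58 on the other 9, so these 3 arrays stand apart and the IkL/L arrays of a stage came from different mice. Xist, a transcript of female cells, read 10.33 to 12.70 on all 12 arrays, so the other 9 carried both signals. The part of sex in the differences between genotypes was not tested. A fit without the 3 IkL/L replicate 2 arrays keeps a single IkL/L array per stage. Its spread then comes from the WT arrays that chose the genes, so its count is not read.

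In WT cells the 115 genes ran from a mean of 4.61 to 12.43 at DN3, with a median over genes of 8.33. The median was 6.44 at DN4 and 5.41 at DP. The drop from the DN3 to the DN4 mean ranged from 1.03 to 5.33 with a median of 1.77. After DN4 the genes differed: the DP mean was more than 1 below the DN4 mean for 41, within 0.5 of it for 43, and above it for 11. Both WT arrays read under their median in 31 genes at DN4 and in 43 at DP. Of the 115 genes, 110 are protein coding. The genes at the edge of the choice were Ikzf4 and Milr1 just inside, with margins of 1.0101 and 1.0103, and Klf9 and Arhgef5 just outside, with 0.9935 and 0.9881.

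**Figure D1:**
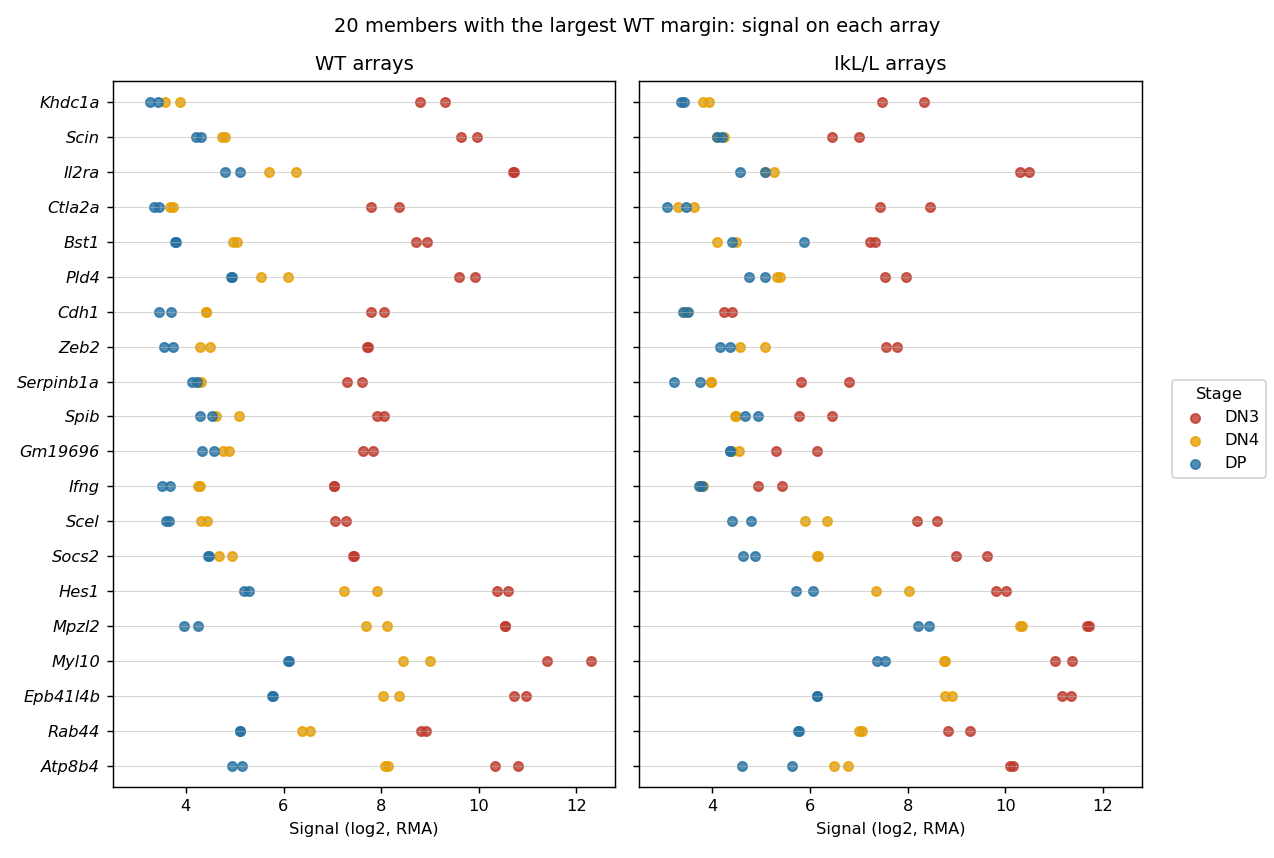
Log2 signal of the 20 genes with the largest WT margin, with WT arrays on the left and IkL/L arrays on the right and 1 point per array coloured by stage. In the WT panel the DN3 points lie apart from all others because the choice required it, and in the IkL/L panel the Cdh1 DN3 points lie at 4.41 and 4.23, far left of their WT position at 8.06 and 7.80.

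The widest WT margins belonged to genes of unlike function. Khdc1a, which encodes a KH-domain protein, read 9.31 and 8.79 on the WT DN3 arrays, 3.87 and 3.58 at DN4 and 3.27 and 3.42 at DP, a margin of 4.92. Scin, the actin-severing protein scinderin, read 9.96 and 9.64 at DN3, 4.74 and 4.81 at DN4 and 4.21 and 4.31 at DP. Il2ra, the alpha chain of the interleukin-2 receptor (CD25), read 10.71 and 10.72 at DN3, 5.70 and 6.25 at DN4 and 4.80 and 5.12 at DP. CD25 is the surface protein by which DN3 and DN4 cells are usually separated, so a drop of Il2ra may follow from the gate and is not a finding. Behind them came Ctla2a, related to the propeptide of cysteine proteases, with a margin of 4.05, Bst1, an ectoenzyme that makes cyclic ADP-ribose, with 3.66, and Pld4, an endolysosomal nuclease of the phospholipase D family, with 3.51.

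The IkL/L arrays ask whether the same genes drop at the same step when Ikaros is low. From DN3 to DN4 in IkL/L cells, 85 of the 115 genes fell in limma's moderated test (p under 0.05 after Benjamini-Hochberg adjustment for all 18194 genes), and 0 rose. Over all genes 1.58% fell and 0.346% rose. The median difference was -1.33 over the 115 genes and -0.03 over all genes, and the DN4 mean was below the DN3 mean for all 115. The 85 genes made up 29.5% of all genes that fell at this step. The count rested on both DN4 arrays: without IkL/L DN4 replicate 1 it was 42, against 0.379% of all genes, and without replicate 2 it was 38, against 0.385%. In all, 36 of the 115 genes, and 0.297% of all genes, fell in the full fit and whichever of the 6 IkL/L arrays was left out. The summed level of 12 genes that respond to cell handling, such as Fos and Hspa1a, was 13.95 to 14.68 on the IkL/L DN3 arrays, 13.66 to 13.92 at DN4 and 12.07 to 12.25 at DP, and its part in these differences was not tested.

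**Figure D2:**
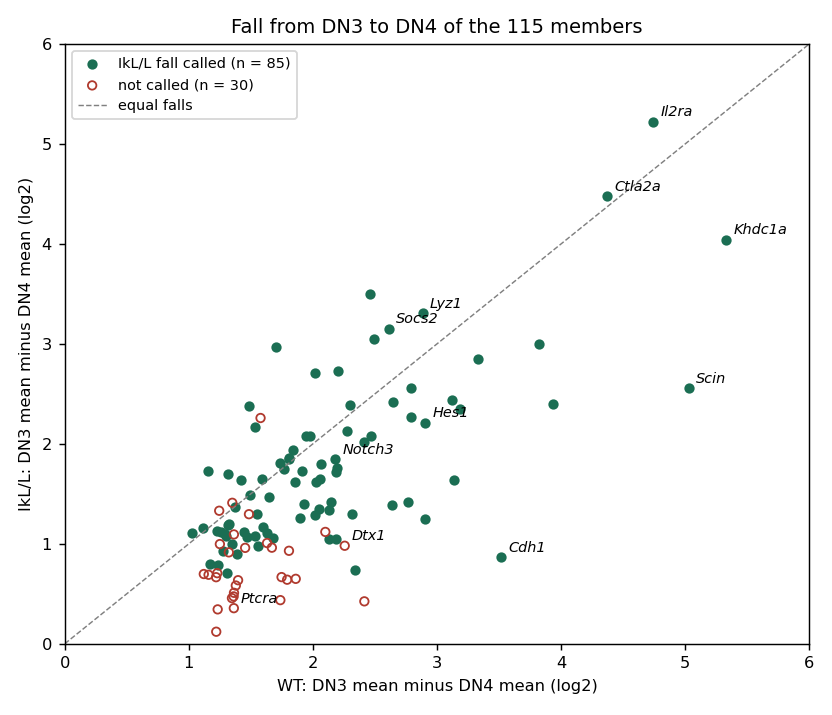
Drop in mean log2 signal from DN3 to DN4 for each of the 115 genes, in WT cells on the horizontal and in IkL/L cells on the vertical axis; filled points fell in the IkL/L test and the dashed line marks equal drops. The median drop was 1.77 in WT and 1.33 in IkL/L cells, and most points lie below the line; the WT values were used to choose the genes.

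The largest measured IkL/L difference was that of Il2ra, from 10.30 and 10.50 on the DN3 arrays to 5.08 and 5.27 at DN4, a fall of 5.22 in signal (SE 0.20, limma adjusted p = 9.48e-06). As in WT cells, this drop may follow from the CD25 gate and is not a finding. Ctla2a went from 8.46 and 7.43 to 3.63 and 3.30 and fell by 4.48 (SE 0.29, adjusted p = 0.000156). Khdc1a went from 8.34 and 7.48 to 3.81 and 3.92 and fell by 4.04 (SE 0.23, adjusted p = 0.000121). In each of these genes both DN3 arrays were far above both DN4 arrays. The DN4 values of all 3 lay near or below the array median, where signal may be mostly background, so the order of these differences is not read. Atp8b4, a lipid flippase subunit, read 10.17 and 10.09 at DN3, 6.49 and 6.78 at DN4, and 4.61 and 5.63 at DP, and fell by 3.50 (SE 0.29, adjusted p = 0.000402) and then by 1.52 (SE 0.29, adjusted p = 0.0033). Its WT DN4 arrays, at 8.15 and 8.08, were above both IkL/L DN4 arrays.

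Over the whole passage from DN3 to DP, 102 of the 115 genes fell in IkL/L cells and 0 rose, where 15.8% of all genes fell and 10.8% rose. The median difference was -1.83 over the 115 genes and -0.07 over all. The 13 genes that did not pass were Dtx1, Prag1, Iigp1, Tmem176b, Ptcra, Dio2, Smim5, Gm15708, Peli2, Fam43a, Parp12, Tbc1d8 and Themis2, named after their values were seen. The DP mean was below the DN3 mean in 112 of the 115, and above it in Dtx1, Tmem176b and Tbc1d8. At the second step, from DN4 to DP, 43 of the 115 genes fell and 8 rose, beside 15.4% and 11.7% of all genes, with a median of -0.40 against -0.02. Taken by step, 35 of the 115 fell at both, as 0.412% of all genes did, 46 passed only at the first (0.715%), and 4 fell and then rose (0.456%). A further 8 passed only at the second with a fall (14.9% of all genes), 4 only at the second with a rise (11.1%), and 18 at neither (72.2%).

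The same rule was also applied to the IkL/L arrays in place of the WT ones. It gave 74 genes, 0.407% of all, of which 53 were among the 115. The shared genes are 46.1% of the WT list and 71.6% of the IkL/L list. The lower IkL/L DN3 array lay above all 4 later IkL/L arrays in 105 of the 115 genes, or 91.3%, and in 13.2% of all genes. The 10 with an overlap were Dtx1, Prag1, Iigp1, Tmem176b, Ptcra, Smim5, Gm15708, Fam43a, Parp12 and Tbc1d8.

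Among the lists of known function, the Notch pathway list held the most of the 115 genes, 5 of its 26 genes measured. They were the receptor gene Notch3, the repressor gene Hes1, the ubiquitin ligase gene Dtx1, Ptcra, which encodes pre-T-alpha, and Il2ra. The lists differ in length and share genes, and the DN stage list gave 3 of its 5: Il2ra, Ptcra and Kit. Nothing is read from the size of the Notch group. In IkL/L cells Il2ra, Hes1 and Notch3 fell from DN3 to DN4, while Dtx1 and Ptcra did not pass the test. The fall of Il2ra may follow from the CD25 gate. None of the other 21 genes of the Notch list measured, Notch1 among them, passed in either direction at this step, and their median difference was -0.12. From DN3 to DP, 4 of the 21 fell and 3 rose, with Notch1 at -0.49 and Myc at -3.04.

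Hes1, which represses other genes in response to Notch, read 10.61 and 10.37 on the WT DN3 arrays, 7.24 and 7.92 at DN4 and 5.30 and 5.18 at DP. On the IkL/L arrays it read 10.01 and 9.81, then 7.36 and 8.04, then 5.70 and 6.05. The gene stepped down at each stage in both genotypes, with IkL/L below WT at DN3 and above it at DP. In IkL/L cells it fell by 2.21 (SE 0.23, adjusted p = 0.00177) to DN4 and by a further 1.82 (SE 0.23, adjusted p = 0.000364) to DP.

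Notch3 encodes a Notch receptor of immature thymocytes. It read 11.22 and 11.06 on the WT DN3 arrays, 8.84 and 9.08 at DN4 and 8.36 and 8.26 at DP. The IkL/L arrays read 10.97 and 10.90, then 8.88 and 9.29, then 9.15 and 9.13, so the DP values did not fall below those of DN4 and lay above both WT DP arrays. The first IkL/L step was a fall of 1.85 (SE 0.16, adjusted p = 0.000619), and the second was 0.06 (SE 0.16, adjusted p = 0.87).

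Ptcra encodes the surrogate alpha chain of the pre-T cell receptor. Its WT signal went from 10.69 and 10.83 at DN3 to 9.36 and 9.44 at DN4 and 8.06 and 8.76 at DP. Its IkL/L signal was 10.27 and 10.03 at DN3, 9.77 and 9.81 at DN4 and 10.03 and 10.05 at DP. The IkL/L arrays of the 3 stages thus stayed close together, and both DP arrays lay above both WT DP arrays. The IkL/L difference was -0.36 (SE 0.14, adjusted p = 0.328) from DN3 to DN4 and -0.11 (SE 0.14, adjusted p = 0.648) from DN3 to DP.

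Dtx1, a target and modulator of Notch, showed the largest reversal among the 5. On the WT arrays it read 10.32 and 10.24 at DN3, 7.77 and 8.27 at DN4 and 7.00 and 7.20 at DP. On the IkL/L arrays it read 9.06 and 9.34, then 7.98 and 8.46, then 9.04 and 10.21, so the DP arrays were back at or above the DN3 level. The IkL/L step to DN4 was -0.98 (SE 0.33, adjusted p = 0.241), and from DN4 to DP the gene rose by 1.41 (SE 0.33, adjusted p = 0.0108). That rise was lost without IkL/L DN4 replicate 1 (adjusted p = 0.104) or DP replicate 2 (0.0641), and a second Dtx1 probe set of lower signal, at 5.79, 5.93 and 5.60 in IkL/L DN3, DN4 and DP cells, did not show it.

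**Figure D3:**
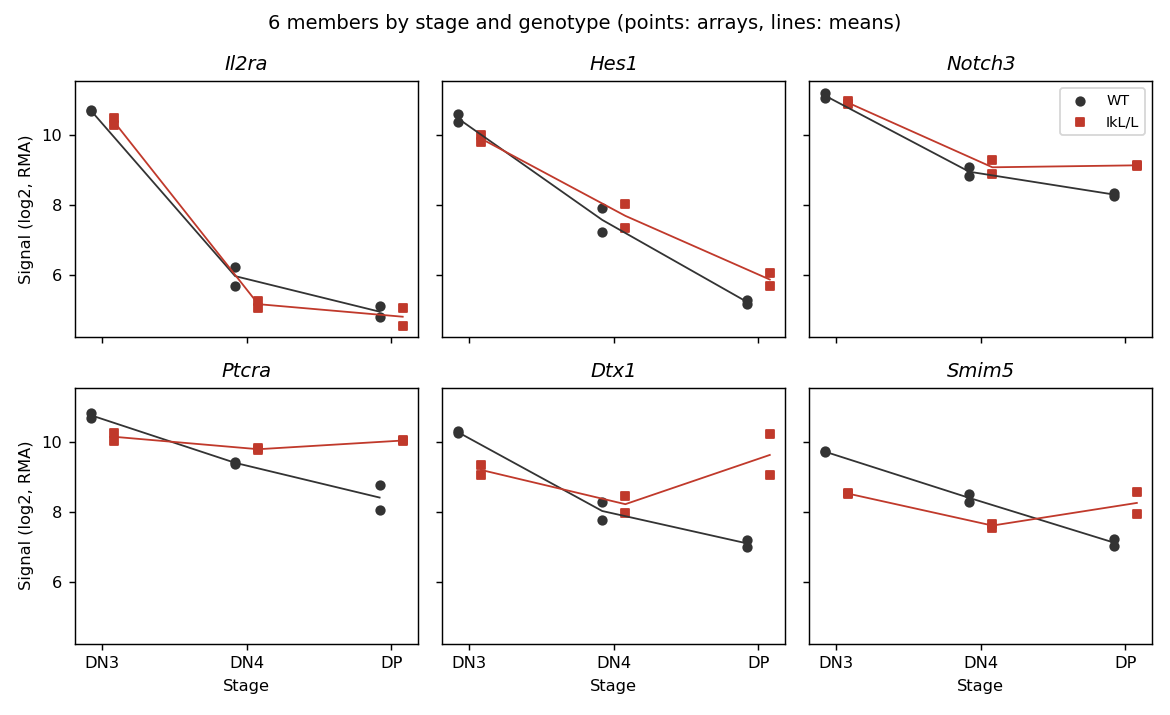
Log2 signal at the DN3, DN4 and DP stages for the Notch-list genes Il2ra, Hes1, Notch3, Ptcra and Dtx1 and for Smim5, with points for arrays and lines joining group means, WT dark and IkL/L red. Il2ra drops in both genotypes, whereas the IkL/L means of Ptcra (10.04), Dtx1 (9.63) and Smim5 (8.26) at DP lie above the WT means of 8.41, 7.10 and 7.12.

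Beside Ptcra, 1 gene of pre-T cell receptor and proximal receptor signalling was among the 115. Cblb, a ubiquitin ligase that restrains receptor signals, read 10.13 and 9.70 on the IkL/L DN3 arrays and 8.71 and 8.54 at DN4, and fell by 1.30 (SE 0.18, adjusted p = 0.00669). That call was lost without IkL/L DN4 replicate 1 (adjusted p = 0.0691) or replicate 2 (0.124). Of the other 19 genes on that list, Cd3g alone changed at this step, by -0.63 (SE 0.13, adjusted p = 0.046). Calls of genes outside the 115 were not refitted with arrays left out. The recombination list, with Rag1 and Rag2, had no gene among the 115, and 0 of its 10 genes changed at this step.

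Spib, an Ets-family factor of early lymphoid and plasmacytoid dendritic cells, was the only 1 of 28 early T lineage and progenitor regulators among the 115. It read 7.92 and 8.05 on the WT DN3 arrays, 4.61 and 5.09 at DN4 and 4.28 and 4.53 at DP. The IkL/L DN3 arrays read 6.45 and 5.77, below both WT arrays, and the later IkL/L arrays 4.48, 4.46, 4.93 and 4.67. Its IkL/L fall of 1.64 (SE 0.21, adjusted p = 0.00432) was lost without DN4 replicate 1 (0.0593) or replicate 2 (0.0689). Of the 27 other regulators, Runx1 fell by 0.96 and Runx3 by 1.15, and Id3, an inhibitor of E proteins, rose by 0.78. Zeb2, a zinc-finger repressor, read 7.73 and 7.71 on the WT DN3 arrays and 7.79 and 7.55 on the IkL/L ones, and fell by 2.85 (SE 0.19, adjusted p = 0.000156) in IkL/L cells.

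Cytokine receptors and their feedback genes gave 4 of the 115: Il2ra, Il7r, Kit and Socs2. Il7r, the interleukin-7 receptor alpha chain, read 10.61 and 10.85 on the WT DN3 arrays, 9.32 and 9.23 at DN4 and 6.29 and 5.48 at DP. On the IkL/L arrays it read 9.67 and 9.57, then 8.76 and 8.56, then 5.62 and 7.72. The IkL/L DP pair was far apart. The step to DN4, -0.96 (SE 0.51, adjusted p = 0.508), did not pass, and the call of the step to DP, -1.99 (SE 0.51, adjusted p = 0.0169), was lost without DN4 replicate 1 (0.105) or replicate 2 (0.0705). Kit, the receptor of stem cell factor, read 8.43 and 7.27 at IkL/L DN3 and 6.58 and 6.45 at DN4, a difference of -1.33 (SE 0.31, adjusted p = 0.0722). Socs2, a feedback inhibitor of cytokine signals, stood out as higher in IkL/L: 9.63 and 8.98 against 7.42 and 7.44 in WT at DN3, and 6.16 and 6.15 against 4.95 and 4.68 at DN4. It fell by 3.15 (SE 0.21, adjusted p = 0.000156) and then by 1.40 (SE 0.21, adjusted p = 0.00101) in IkL/L cells. Of the 18 other genes on the list only Socs3 changed from DN3 to DN4, by -2.59.

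Adhesion and cytoskeletal genes included those with the lowest IkL/L signals relative to WT. Cdh1, which encodes E-cadherin, read 8.06 and 7.80 on the WT DN3 arrays and 4.41 and 4.23 on the IkL/L DN3 arrays, below the median of the array. At DN4 and DP its IkL/L arrays read 3.39 to 3.51, and the WT arrays 3.44 to 4.42. The IkL/L fall of 0.87 (SE 0.10, adjusted p = 0.00316) was thus small and was lost without IkL/L DN4 replicate 1 (0.0529). Scin read 7.01 and 6.44 at IkL/L DN3, against 9.96 and 9.64 in WT, and fell by 2.56 (SE 0.18, adjusted p = 0.000199) to 4.24 and 4.09. Cd93, a surface glycoprotein of early progenitors, read 8.73 and 8.66 on the WT DN3 arrays and 7.75 and 7.56 on the IkL/L ones, and fell by 1.85 (SE 0.14, adjusted p = 0.000309). Afdn, the junction protein afadin, read 6.56 and 7.34 in WT and 4.97 and 4.77 in IkL/L DN3 cells. Its IkL/L fall of 0.73 (adjusted p = 0.0447) was lost without DN3 replicate 1 (0.101), DN4 replicate 1 (0.232) or DN4 replicate 2 (0.324). Among the 19 other adhesion genes Itga4 and Ccr9 fell and Itgb2 rose, and among the 17 other cytoskeletal genes Tubb2a, Tubb2b and Gsn rose.

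Mpzl2, a homophilic adhesion protein of the immunoglobulin family, differed most between genotypes at the later stages. It read 10.55 and 10.53 on the WT DN3 arrays, 7.69 and 8.12 at DN4 and 4.24 and 3.96 at DP. On the IkL/L arrays it read 11.67 and 11.73, then 10.30 and 10.33, then 8.44 and 8.21. All 6 IkL/L arrays were above the WT arrays of their stage, and the mean difference grew from 1.16 to 2.41 to 4.22. It still fell at both IkL/L steps, by 1.38 (SE 0.14, adjusted p = 0.00124) and by 1.99 (SE 0.14, adjusted p = 1.34e-05). Myl10, a myosin light chain, and Epb41l4b, a FERM-domain protein, fell at both IkL/L steps too, by 2.44 and 1.31 and by 2.42 and 2.68 (adjusted p = 0.000156, 0.000339, 0.000156 and 5.36e-06).

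From the cell cycle list Ccnd2 and Cdkn1a, and from the survival list Bcl2, were among the 115. Ccnd2, the G1 cyclin D2, read 12.16 and 11.93 on the WT DN3 arrays, 10.38 and 10.55 at DN4 and 7.13 and 6.48 at DP. The IkL/L arrays read 11.60 and 11.44, then 9.41 and 9.12, then 4.49 and 6.87. The DP pair was far apart, and although the DN4 arrays were about 2 below the DN3 arrays the first step was not called (-2.26, SE 0.58, adjusted p = 0.109). The fall from DN4 to DP was 3.58 (SE 0.58, adjusted p = 0.00137). Cdkn1a, the cyclin-kinase inhibitor p21, read 9.40 and 9.30 at IkL/L DN3 and 8.30 and 8.31 at DN4, a fall of 1.05 (SE 0.18, adjusted p = 0.0197) that was lost without DN4 replicate 1 (0.195) or replicate 2 (0.211). Bcl2, which blocks apoptosis, read 11.28 and 10.75, then 9.21 and 9.33, then 7.63 and 8.44 on the IkL/L arrays. On this brightest probe set these were close to the WT means of 11.07, 9.30 and 8.17. Its first IkL/L fall of 1.75 (SE 0.26, adjusted p = 0.0106) was lost without DN4 replicate 1 (0.125) or replicate 2 (0.111). The dimmer Bcl2 probe sets varied, with WT and IkL/L DN4 means of 6.83 and 6.44, 5.91 and 5.70, 6.33 and 7.88, and 5.89 and 6.86. Where WT DN4 read 6.33 and 5.89, WT DP read higher, at 7.71 and 7.21. Of the 23 other cell cycle genes, 1 fell and 2 rose from DN3 to DN4.

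Several of the 115 are markers of other or more mature cells. Nkg7, a granule protein of cytotoxic cells, read 10.38 and 10.05 on the WT DN3 arrays and 8.81 and 8.14 on the IkL/L ones, and fell by 3.05 (SE 0.22, adjusted p = 0.00022) in IkL/L cells. Its list of 14 gamma-delta T and NK genes had a summed level of 12.73 to 13.04 at WT DN3, 13.01 to 13.12 at WT DN4 and 9.76 to 10.18 at WT DP, against 12.83 to 12.97, 12.90 to 13.12 and 11.61 to 11.92 in IkL/L cells, and its other 13 genes had 0 calls in IkL/L from DN3 to DN4. Ctla4, an inhibitory receptor of activated T cells, read 8.40 and 8.45 at IkL/L DN3 and 6.92 and 6.64 at DN4, and fell by 1.65 (SE 0.20, adjusted p = 0.00338, or 0.0665 without DN4 replicate 2). Ifng, which encodes interferon gamma, read 7.04 and 7.03 on the WT DN3 arrays and 4.94 and 5.43 on the IkL/L DN3 arrays, and fell by 1.42 (SE 0.15, adjusted p = 0.00212). The 2 lysozyme genes, Lyz1 and Lyz2, are near-identical neighbours whose probe sets may share signal, so they are not independent. Lyz2 read 6.90 and 6.79 in WT DN3 and 8.28 and 7.45 in IkL/L DN3 cells, and fell by 2.38 (SE 0.31, adjusted p = 0.00489, or 0.0822 without DN4 replicate 2). Lyz1 fell by 3.31 (SE 0.65, adjusted p = 0.0382), and that call was lost without DN3 replicate 1 (0.0733), DN4 replicate 1 (0.105) or DN4 replicate 2 (0.33). The 14 myeloid markers summed to 9.13 and 9.23 on the WT DN3 arrays and to between 9.26 and 10.73 on the IkL/L DN3 arrays, with S100a8 at 8.96 on IkL/L DN3 replicate 1 and 5.33 on replicate 2. Their part in the lysozyme values was not tested, and on both IkL/L DN3 arrays 5 of the 14 read under the array median.

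Other genes with wide WT margins kept a fall in IkL/L cells, from a start below, above or overlapping that of WT cells. Bst1 read 8.95 and 8.71 on the WT DN3 arrays and 7.33 and 7.24 on the IkL/L ones. At DN4 its IkL/L arrays read 4.48 and 4.10 and at DP 4.41 and 5.88, and the first step was a fall of 3.00 (SE 0.38, adjusted p = 0.00413, or 0.0728 without DN4 replicate 2). Pld4 fell by 2.39 (SE 0.18, adjusted p = 0.000265), from 7.96 and 7.53 to 5.32 and 5.38. Serpinb1a, an inhibitor of neutrophil serine proteases, read 7.61 and 7.30 on the WT DN3 arrays and 6.80 and 5.81 on the IkL/L ones. It fell by 2.35 (SE 0.29, adjusted p = 0.00378), a call lost without DN4 replicate 1 (0.0536) or replicate 2 (0.0561). Scel, sciellin of the cornified envelope, went the other way between genotypes, with 7.28 and 7.04 in WT and 8.60 and 8.20 in IkL/L DN3 cells, and fell by 2.27 (SE 0.22, adjusted p = 0.00103). Rab44, a large Rab GTPase, read 8.93 and 8.83 in WT and 9.28 and 8.84 in IkL/L DN3 cells and fell by 2.02 (SE 0.18, adjusted p = 0.000621).

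In the lists of other cell types, none of the 11 dendritic cell, 5 erythroid, 12 thymic stroma, 12 handling stress or 4 sex-linked genes passed the test from DN3 to DN4, and none is among the 115. Of 11 B lineage genes, Vpreb1, part of the surrogate light chain, fell by 2.04. Of 11 DP stage markers 1 fell and 1 rose, of 11 other mature T cell markers Cd6 rose by 0.90, and of 10 other survival genes Bid rose by 0.91.

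From DN4 to DP in IkL/L cells 8 of the 115 genes rose, beside 11.7% of all genes. They were Dtx1, Trim30d, Tmem176b, Tspan9, Smim5, Mzb1, Tbc1d8 and Nol4l. Tmem176b, an ion channel-like protein of intracellular membranes, read 11.04 and 10.40, then 9.89 and 9.69, then 11.05 and 11.00 on the IkL/L arrays, and rose by 1.24 (SE 0.20, adjusted p = 0.00125). On the WT arrays it read 10.31 and 10.34, then 8.26 and 8.77, then 7.99 and 8.92. Mzb1, a chaperone of the endoplasmic reticulum, rose by 0.94 (SE 0.19, adjusted p = 0.00458), and Tbc1d8, of the Rab-GAP family, by 0.72 (SE 0.15, adjusted p = 0.00504). At DP Mzb1 read 6.09 and 6.06, still below its IkL/L DN3 arrays at 7.13 and 6.59, and Tbc1d8 read 7.10 and 7.02, beside 6.90 and 7.05 at DN3. The Mzb1 rise was lost in limma with all 12 arrays in the fit (adjusted p = 0.124). The count of genes that rose was 3 without DN4 replicate 1, 4 without DN4 replicate 2 and 4 without DP replicate 2. Smim5, a small membrane protein, read 8.53 and 8.52, then 7.66 and 7.55, then 8.58 and 7.93 on the IkL/L arrays, while its WT arrays went from 9.75 and 9.70 to 8.29 and 8.51 and to 7.01 and 7.23. Tspan9, a tetraspanin, read 6.56 and 6.56 at IkL/L DN4 and 6.92 and 7.27 at DP, and Trim30d, of the TRIM ubiquitin ligase family, 4.73 and 4.67 and then 5.40 and 5.79. The rises were 0.65 for Smim5, 0.54 for Tspan9, 0.90 for Trim30d and 0.55 for Nol4l (adjusted p = 0.0473, 0.0428, 0.0164 and 0.0199). Besides Dtx1, single-array losses ended the calls of Trim30d (up to 0.136), Tspan9 (up to 0.292), Smim5 (up to 0.339) and Nol4l (up to 0.166).

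The difference between genotypes is described without a test, because the WT arrays of every stage chose the genes. At DN3 both IkL/L arrays were below both WT arrays in 58 of the 115 genes, 50.4% against 22.2% of all genes, and above them in 31, 27.0% against 21.5%. With a difference of at least 1 log2 the counts were 28 lower, where 0.616% of all genes were, and 13 higher, where 0.918% were. The median difference at DN3, IkL/L minus WT, was -0.36 over the 115 genes and -0.01 over all genes. It was -0.55 without IkL/L DN3 replicate 1 and -0.17 without replicate 2. Over genes it ranged from -3.61 for Cdh1 to 1.98 for Lrp1. Because the choice used the WT DN3 arrays, nothing is read from the direction.

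**Figure D4:**
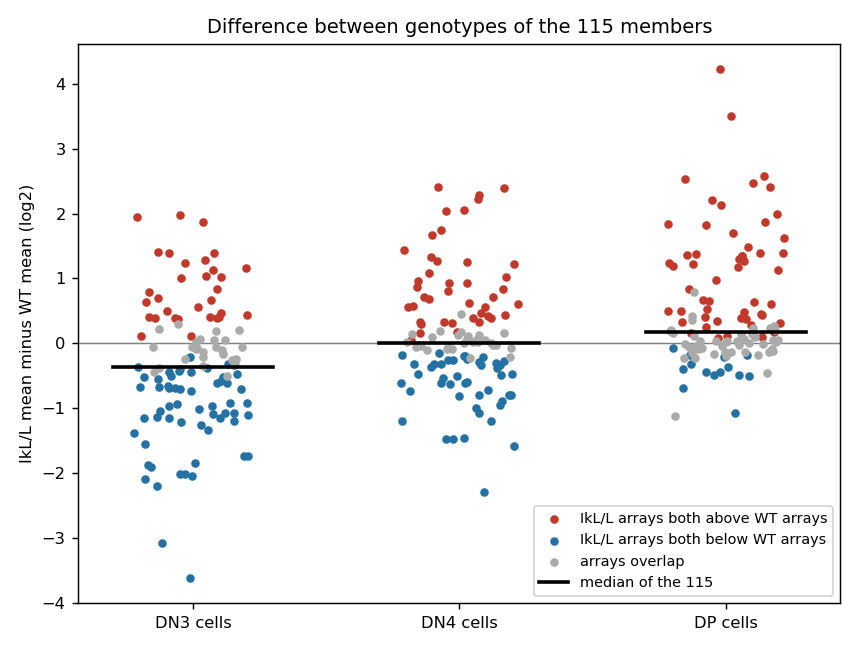
Difference of mean log2 signal, IkL/L minus WT, for each of the 115 genes at the 3 stages; colours show whether both IkL/L arrays lay above or below both WT arrays, and bars mark medians of -0.36 at DN3, near 0 at DN4 and 0.17 at DP. The points above 3 at DP are Mpzl2 (4.22) and Pdgfrb (3.50), and the points below -3 at DN3 are Cdh1 and Scin.

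Low in IkL/L DN3 cells beside Cdh1 and Scin were Ptgs2, Afdn, Mzb1, Pld4, Gm19696 and Prag1. Ptgs2, the inducible cyclooxygenase, read 7.05 and 5.27 on the WT DN3 arrays and 3.84 and 4.08 on the IkL/L ones, with the WT pair itself far apart. Pld4 read 9.92 and 9.60 against 7.96 and 7.53. Prag1, a pseudokinase scaffold, read 9.15 and 9.18 against 7.11 and 7.39. At the other end Lrp1, an endocytic receptor, read 6.59 and 6.27 in WT and 8.76 and 8.05 in IkL/L DN3 cells. Clec11a, a secreted growth factor of blood and bone, read 7.25 and 7.12 against 9.22 and 9.03, and Pdgfrb, the beta receptor of platelet-derived growth factor, 9.35 and 9.69 against 11.06 and 10.55. None of these pairs overlapped between genotypes.

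At DN4 the IkL/L arrays were below WT in 45 genes, or 39.1% where 34.4% of all genes were, and above in 42, or 36.5% against 22.6%. Differences of at least 1 log2 numbered 8 lower, against 0.522%, and 15 higher, against 1.2%, with a median near 0 (-0.0002). Among the highest were Mpzl2 at 2.41, Vwce at 2.29, Lrp1 at 2.23, Med12l, a Mediator subunit, at 2.05, and Clec11a at 2.05. Vwce read 6.18 and 6.22 in WT DN4 cells and 8.42 and 8.55 in IkL/L DN4 cells, and Lrp1 5.14 and 5.22 against 7.50 and 7.32. Cd8b1, a co-receptor gene that comes on toward DP, read 9.40 and 9.55 in WT DN4 cells and 7.86 and 7.78 in IkL/L DN4 cells, so the DN4 populations differed in this marker, and its part in these differences was not tested.

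The choice required low WT signals at DN4 and DP, which favours IkL/L arrays above WT. Nothing is therefore read from the direction at either stage. At DP more genes lay above WT than below it. The IkL/L arrays were above WT in 53 genes, 46.1% against 21.1% of all, and below in 15, 13.0% against 19.2%. By at least 1 log2, 28 were higher, against 1.37% of all genes, and 1 was lower, against 0.363%: Ahr, the aryl hydrocarbon receptor, named after its value was seen. Pdgfrb read 4.76 and 5.45 on the WT DP arrays and 8.23 and 8.97 on the IkL/L ones. Iigp1, an interferon-induced GTPase, read 4.85 and 4.47 against 5.84 and 7.91, with the IkL/L pair far apart. Across stages, 23 genes were above WT without overlap at all 3, as 4.62% of all genes were, among them Mpzl2, Socs2, Scel, Lrp1, Clec11a, Vwce and Pdgfrb, and 8 were below at all 3, against 3.11%, among them Scin, Serpinb1a and Ctla4. A further 16 lay below WT at DN3 and above WT at DP, against 2.81% of all genes. The choice of genes with a high WT DN3 and a low WT DP signal favours this pattern, so nothing is read from the count.

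A gene with several probe sets gives a check within the array. Other probe sets existed for 62 of the 115 genes, 107 in all, and 53 of them, for 36 genes, were at or above the array median on at least 6 of the 12 arrays. Of these 53, 36 had a WT drop from DN3 to DN4 of at least 1 and 27 had an IkL/L drop of at least 1, and 52 had an IkL/L DN4 mean below the DN3 mean. The exception was that of Dtx1. The size of the genotype difference varied between probe sets of a gene. At DP the IkL/L minus WT difference of Mpzl2 was 4.22 on its brightest probe set and 3.13 and 0.38 on the other ones, which read 6.46 and 4.78 in IkL/L cells. For Pdgfrb it was 3.50 on the brightest and 0.62 on a dimmer one, at 5.08 in WT and 5.70 in IkL/L cells. Ccnd2 had 6 such probe sets, and their IkL/L drops from DN3 to DN4 were 1.17 to 2.34, beside 2.26 on the brightest. A second Notch3 probe set read 5.28 in WT and 5.40 in IkL/L DP cells, a difference of 0.12 where the brightest one gave 0.83.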

How the data were processed

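The authors deposited log2 signals made with RMA, per the submitters' processing notes (version and annotation not given in the sources used here), for 45099 probe sets on 12 arrays. RMA corrects background, quantile normalizes and summarises probes, and array signal has no read depth. Of the probe sets, 34958 carried 1 gene symbol in the platform table, 932 several and 9209 none, and the first kind gave 18194 genes. Symbols were updated and promoters taken through RefSeq. Differences between IkL/L stages were fitted with limma 3.58.1 in R 4.3.3 (1 mean per group over the 6 IkL/L arrays, intensity trend, no brightness filter, 3 residual degrees of freedom, median prior 6.18) and adjusted over all genes by Benjamini-Hochberg. The fit was tested on simulated data. Of the 115 genes, 113 would pass a filter of 2 arrays at the array median, 4 of them through the WT DN3 arrays alone, and no filter was applied.

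The members, the 20 gene lists and the motifs were chosen with earlier results of these data known. A list's summed level is the log2 of the sum of its genes' linear signals. The rule for naming genes took the 20 largest WT margins, members on a list, the 8 highest and 8 lowest genotype differences at DN3 and the 8 highest at DN4, the 5 largest IkL/L falls, members that rose, the genes at the threshold, and the 5 largest margins among genes that met the rule in IkL/L only; some genes it names are not reported here. Replicate numbers were not used to pair the IkL/L arrays in the reported fit. The labels state no pairing. Deviations of same-numbered arrays correlated at 0.42 between DN3 and DN4, 0.087 between DN3 and DP and 0.018 between DN4 and DP. However, the 3 IkL/L replicate 2 arrays share a low Y-linked signal. Within each genotype Xist also differed by number in the same direction at every stage. Arrays were left out in turn, and the fit, filter, normalization and probe summary were varied. A labelling batch was not tested, since the labels name 3 labelling series and assign none to a sample.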

Additional observations from a re-analysis of the deposited data

Results flagged for a closer look

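These results drew attention because every array of 1 comparison moved one way and every array of the matching comparison moved the other; none of these differences was tested, since the WT arrays chose the genes. A choice on high WT DN3 and low later WT signals favours IkL/L arrays below WT at DN3 and above it at DP. The choice sets no order between the WT DN4 and DP signals. Values are differences of log2 means.

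Below WT at DN3 and above it at DP, with no overlap at either stage, were Bst1 (IkL/L minus WT, -1.54 at DN3 and 1.36 at DP), Spib (-1.88 and 0.39), Ifng (-1.85 and 0.16), Hes1 (-0.58 and 0.64), Myl10 (-0.66 and 1.35) and Cdkn1a (-0.36 and 1.24). The same held for Dtx1 (-1.08 and 2.53), Notch3 (-0.20 and 0.83), Ptcra (-0.62 and 1.63), Ptgs2 (-2.20 and 0.11) and Smim5 (-1.20 and 1.13).

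From DN4 to DP, WT arrays went down and IkL/L arrays up for Spib (-0.44 in WT and 0.33 in IkL/L), Dtx1 (-0.92 and 1.41), Ptcra (-0.99 and 0.25), Tspan9 (-0.69 and 0.54) and Smim5 (-1.28 and 0.65). Med12l did the reverse, with 0.59 in WT and -1.22 in IkL/L.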

How the results depend on the processing

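Under the alternatives no followed value of a named gene changed sign. The values followed were all DN3 to DN4 differences of these genes. Differences from DN3 to DP and from DN4 to DP were followed only where the reported fit called them. The sign of the uncalled ones, such as that of Notch3 from DN4 to DP, was not followed. The count of 85 genes that fell from DN3 to DN4 in IkL/L cells ranged from 38 to 95 when single arrays were left out, the 102 from DN3 to DP from 93 to 104, and the 43 from DN4 to DP from 34 to 55. With the replicate block these counts were 97, 103 and 50. The labels do not state whether the numbers pair the arrays, though sex-linked signals follow the numbers. Deviations of same-numbered IkL/L arrays correlated at 0.42 between DN3 and DN4, 0.087 between DN3 and DP and 0.018 between DN4 and DP. A low Y-linked signal is shared by the IkL/L replicate 2 arrays. Xist read higher on WT replicate 1 than on replicate 2 at each stage. The values were 12.09 against 11.34 at DN3, 11.53 against 10.33 at DN4 and 12.41 against 11.40 at DP. Requiring a difference of at least 1 log2 left 27 of the 43. The rule gave 348 genes at 0.5 log2 and 25 at 2 log2, and 118 to 174 with a WT array left out, the highest without WT DN3 replicate 2. Of the 115 genes, 88 met the rule in IkL/L at 0.5 log2 and 17 at 2 log2, and 53 to 77 with an IkL/L array left out. The median genotype difference was -0.55 to -0.17 at DN3, -0.05 to 0.04 at DN4, where it changed sign, and 0.15 to 0.27 at DP when single arrays were left out, and -0.24 at DN4 over the genes chosen at 2 log2. Of 2110 values of named genes, 1956 kept their side of the threshold, 114 lost a call and 40 gained one. Of 51 named genes followed in this way, 36 fell from DN3 to DN4 in the reported fit. Of those 36, 19 fell in every alternative that included the gene, since some filters left dim genes out. One alternative, all arrays with a filter and no trend, was chosen after the data were seen. The cause of these shifts was not tested.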

Other observations

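The rule applied to the IkL/L arrays gave 21 genes that did not meet it in WT. Lmcd1, a LIM-domain co-regulator, had the largest margin, 3.06: it read 10.25 and 9.81 on the IkL/L DN3 arrays, 6.75 and 6.02 at DN4 and 4.49 and 4.52 at DP, while the 6 WT arrays read 4.18 to 4.94. Cttnbp2nl read 7.65 and 7.43 at IkL/L DN3 and 3.82 and 4.09 at WT DN3. Oasl2, an interferon-induced protein, read 5.87 and 6.61 against 5.46 and 4.91, and Rnf182 6.25 and 6.12 against 4.97 and 5.19. These genes were chosen by their IkL/L values, so the differences are a description with no test.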
